A study of Rattus norvegicus with 8 samples.

Results

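Actin and actin-binding genes were examined in hypothalamic RNA of rats injected with retinoic acid (RA). The 10 genes are *Actb*, *Actg1*, *Tagln2*, *Tmsb4x*, *Tmsb10*, *Arpc1b*, *Cfl1*, *Pfn1*, *Coro1a* and *Msn*, out of 15159 genes that could be named on the array. They were picked because *Actb*, the reference gene of the study's PCR, was higher after RA in these same arrays. Their RA over vehicle ratios are therefore given as a description, and limma p values counted among them below are not read as a test. Male F344N rats held in short days (SD) had received all-trans RA (n = 4) or vehicle (n = 4) into the third ventricle, and tissue blocks of the hypothalamus that include the arcuate nuclei were collected a day later. The labels of the arrays give an RA concentration of 1e-05 M and saline as vehicle. The methods of the study name a higher concentration, and DMSO in saline as vehicle. The ages of the rats are not given in the sources used here, and each block holds all cell types of the tissue. RNA of both groups was hybridised together to 8 Agilent arrays on 1 slide, with RA labelled by Cy5 on arrays 1, 3, 6 and 8 (the Cy5 arrays) and by Cy3 on arrays 2, 4, 5 and 7 (the Cy3 arrays). Each value below is the normalised log2 ratio of RA over vehicle on an array, where 0 means no difference and 1 a doubling, or its mean over the arrays. The 8 arrays include dye-swaps of RNA from 4 rats per group, so an SD below is the spread over arrays and not over 8 separate animals.

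Actin is the protein of the thinnest filaments of the cell, which drive cell shape, movement and phagocytosis, and *Actb* and *Actg1* encode its cytoplasmic forms. Free actin monomers are held by thymosins and handed to filament ends by profilin, cofilin takes filaments apart, the Arp2/3 complex starts new branches, and coronin, transgelin and moesin bind filaments or tie them to other structures. In brain, these genes are used by neurons and glia alike, and microglia and blood leukocytes are rich in them. Actin genes are known targets of serum response factor (SRF), whose MRTF coactivators are held back by free actin and which binds a short sequence called the CArG box.

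Promoter sequence is shown for *Actg1*, because it was the one with a CArG box among the 9 genes that could be searched. *Actb* was not searched. Sequence is also shown for *Arpc1b* and *Coro1a*, whose mean ratios were the highest of the 10. The sequences are the 250 bases before the annotated start in RefSeq (GRCr8), each on the minus strand, at chr10:106120952-106121201 for *Actg1*, chr12:14609489-14609738 for *Arpc1b* and chr1:190731104-190731353 for *Coro1a*. Capitals mark the CArG box in *Actg1*, at positions -90 to -81 from the start, and the GC box GGGCGG or its complement in the others, with 4 sites in *Arpc1b* and 3 in *Coro1a*.
Actg1: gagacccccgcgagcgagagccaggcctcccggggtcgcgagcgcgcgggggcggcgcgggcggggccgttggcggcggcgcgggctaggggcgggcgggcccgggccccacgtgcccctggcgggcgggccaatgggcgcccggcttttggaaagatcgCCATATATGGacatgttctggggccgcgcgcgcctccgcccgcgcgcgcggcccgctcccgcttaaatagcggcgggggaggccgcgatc
Arpc1b: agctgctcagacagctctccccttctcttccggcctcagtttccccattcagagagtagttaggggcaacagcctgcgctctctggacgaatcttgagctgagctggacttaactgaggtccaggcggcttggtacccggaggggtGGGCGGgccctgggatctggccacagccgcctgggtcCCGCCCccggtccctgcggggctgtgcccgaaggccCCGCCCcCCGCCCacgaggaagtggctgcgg
Coro1a: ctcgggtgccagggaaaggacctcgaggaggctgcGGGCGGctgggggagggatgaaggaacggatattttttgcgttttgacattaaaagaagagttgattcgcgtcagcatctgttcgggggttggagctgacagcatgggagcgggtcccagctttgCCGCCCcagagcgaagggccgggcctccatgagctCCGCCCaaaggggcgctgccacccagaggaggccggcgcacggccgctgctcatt
The table of promoters held 9 of the 10 genes, without *Actb*. A CArG box on either strand was found in the 300-base window of 1 of the 9, against 1.64% of 33469 windows of the same length. The DR5 and DR2 response elements of RA receptors were in none of the 9 windows (0 for both, against 0.382% and 0.17% of all windows). GGGCGG was in 8 of the 9, all but *Tmsb4x*, against 33.1% of all windows. A match is a description of letters in these windows and was not tested as a binding site.

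The RA channel had a signal well above background for 57.4% to 74.6% of 30367 probes, and all 10 genes had one in both channels on all 8 arrays. None of the 280 readings of their spots was saturated (0), and 7 were marked as outliers and left out. Some arrays stood apart in markers of other tissue. The median ratio of choroid plexus markers was -1.51 on array 6 and -1.44 on array 7, against 0.08 to 0.57 on the other arrays, and that of smooth muscle and pericyte markers was -0.50 on array 5 and -0.39 on array 8, against -0.05 to 0.61. Each mean is therefore also given without arrays 6 and 7 and without arrays 5 and 8. The ratios of all probes were also spread more widely on arrays 5 to 8, the second row of the slide (SD 0.256 to 0.293), than on arrays 1 to 4, the first row (SD 0.187 to 0.200). Defining markers of the hypothalamic block's main cells were above background on all arrays, among them *Gfap* of astrocytes, *Snap25* of neurons and *Mog* of oligodendrocytes.

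After RA, the mean log2 ratio was above 0 for all 10 genes, as for 47.6% of all named genes, from 0.19 for *Cfl1* to 0.94 for *Arpc1b*, with a median of 0.38. Of their 80 values on single arrays, 75 were above 0, where 48.3% to 52.0% of all named genes were above 0 on an array. A ratio above 0 on all 8 arrays was found for 7 of the 10 genes, against 4.07% of all named genes, and 7 of the 10 had an unadjusted p under 0.01 in limma and a higher level after RA, against 3.52% of all named genes and 2.61% of all probes. As the genes were picked from this contrast, neither count says more than that. The median ratio of all named genes was -0.0047. Over the arrays, the median of the 10 genes was 0.15 to 0.32 on arrays 1 to 4 and 0.44 to 0.70 on arrays 5 to 8. The order of the means was *Arpc1b*, *Coro1a*, *Tagln2*, *Pfn1*, *Tmsb4x*, *Actb*, *Msn*, *Tmsb10*, *Actg1* and *Cfl1*, and neighbours in that order differed by less than the SD of either over the arrays. In whole tissue, more RNA per cell and more cells that carry it cannot be told apart.

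**Figure D1:**
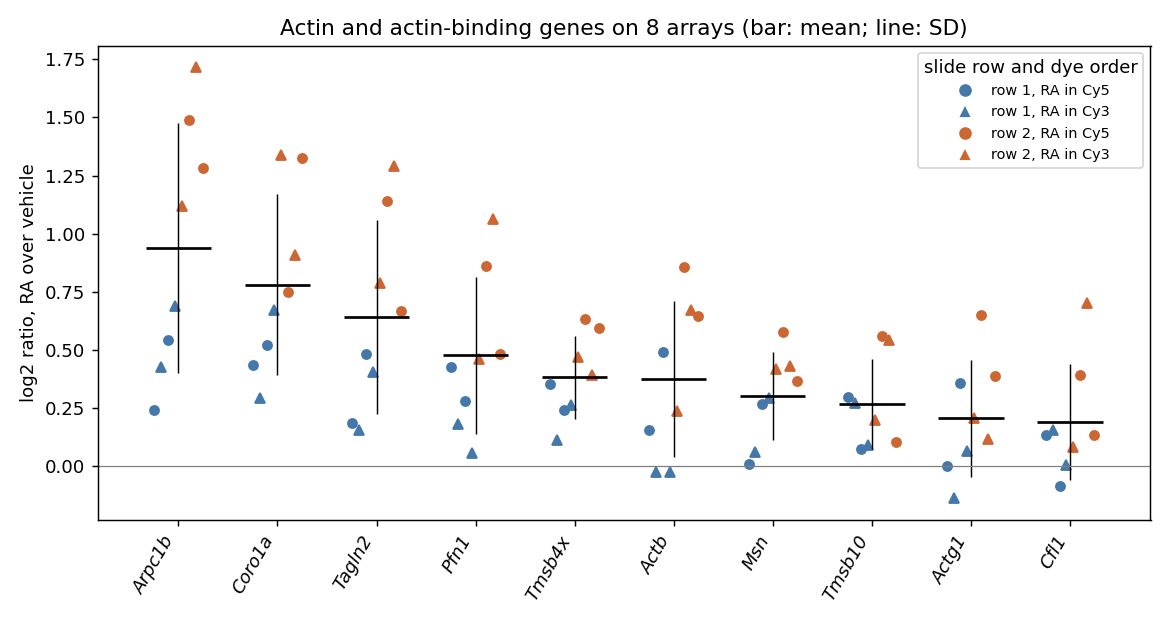
Log2 ratio of RA over vehicle (vertical axis) of each gene on each of 8 arrays, with colour for the row of the slide and shape for the dye order; the bar is the mean and the thin line the SD over the arrays. The means run from 0.94 for *Arpc1b* to 0.19 for *Cfl1*. The orange points of row 2 lie above the blue points of row 1 for 6 of the 10 genes. The share of all named genes for that pattern was not counted, and the ratios of all probes were spread more widely in row 2.

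*Actb* (probe A_44_P423803) encodes beta-actin, which is widely used as a reference for PCR. Its ratios were 0.15, 0.49, 0.85 and 0.64 on arrays 1, 3, 6 and 8, the Cy5 arrays, and -0.025, -0.026, 0.23 and 0.67 on arrays 2, 4, 5 and 7, the Cy3 arrays. It was thus raised on 6 of the 8 arrays and close to 0 on arrays 2 and 4, both of row 1. The mean over the 8 arrays was 0.37 (SD 0.34), or 1.30-fold, which placed *Actb* at rank 449 among named genes by size. The mean was 0.25 without arrays 6 and 7 and 0.35 without arrays 5 and 8. On the log2 scale of intensity, the level of the *Actb* probe was 14.6 to 15.2 (median 14.9) in the RA channel and 14.3 to 14.7 (median 14.5) in the vehicle channel. The 2 ranges overlap, and 6 of the 8 RA levels were above the highest vehicle level. The *Actb* probe was printed 10 times per array, and the SD of the ratio over its spots within an array was 0.0126 to 0.0444, far below the SD between arrays.

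*Actg1* (probe A_64_P090244), which encodes gamma-actin, had ratios of -7.15e-04, 0.36, 0.65 and 0.39 on the Cy5 arrays and -0.14, 0.064, 0.21 and 0.11 on the Cy3 arrays, in the same order of arrays. Arrays 1, 2 and 4 lay near or below 0 and array 6 was highest. The mean was 0.20 (SD 0.25), 1.15-fold, and it was 0.15 without arrays 6 and 7 and 0.17 without arrays 5 and 8. A second, dimmer *Actg1* probe had a mean of 0.34. The probes differed most on array 7, where the brighter one gave 0.11 and the other 0.85. Coding sequences of actins are alike, so that a probe may bind more than 1 of them.

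Among the genes that bind actin monomers, *Tmsb4x* (probe A_42_P498066), thymosin beta-4, had ratios of 0.35, 0.24, 0.63 and 0.59 on the Cy5 arrays and 0.11, 0.26, 0.47 and 0.39 on the Cy3 arrays. All 8 values were above 0, and the 4 arrays of row 2 were the 4 highest. The mean was 0.38 (SD 0.18), 1.30-fold, and it was 0.34 and 0.33 without arrays 6 and 7 and without arrays 5 and 8. This probe was also printed 10 times, with an SD over spots of 0.0168 to 0.0588 within arrays. *Tmsb10* (probe A_44_P1060108), thymosin beta-10, was above 0 on 8 of 8 arrays with ratios from 0.072 to 0.56 and a mean of 0.27 (SD 0.19). That mean was 0.17 without arrays 6 and 7, on which *Tmsb10* was highest, and 0.30 without arrays 5 and 8.

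*Pfn1* (probe A_44_P132470), profilin 1, which hands monomers to growing ends, had ratios of 0.43, 0.28, 0.86 and 0.48 on the Cy5 arrays and 0.18, 0.056, 0.46 and 1.06 on the Cy3 arrays. The values of arrays 6 and 7 were the highest and all were above 0. The mean was 0.48 (SD 0.34), 1.39-fold, and fell to 0.31 without arrays 6 and 7, whereas it stayed at 0.48 without arrays 5 and 8. *Cfl1* (probe A_64_P088256), cofilin 1, had the lowest mean of the 10 genes, 0.19 (SD 0.25), with ratios from -0.087 on array 3 to 0.70 on array 7. Without arrays 6 and 7 the mean of *Cfl1* was 0.07, and without arrays 5 and 8 it was 0.22. Its 5 values of at least 0.13 came from both rows of the slide.

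*Arpc1b* (probe A_44_P344346), a subunit of the Arp2/3 complex, had the highest mean of the 10. Its ratios were 0.24, 0.54, 1.49 and 1.28 on the Cy5 arrays and 0.43, 0.69, 1.12 and 1.72 on the Cy3 arrays. No array was at or below 0, and the 4 arrays of row 2 were all above those of row 1. The mean was 0.94 (SD 0.54), 1.92-fold, rank 93 among named genes. It was 0.72 without arrays 6 and 7 and 0.85 without arrays 5 and 8. The level of the *Arpc1b* probe was 9.80 to 11.4 (median 10.1) in the RA channel and 9.12 to 9.80 (median 9.49) in the vehicle channel, on the log2 scale of intensity, and 7 of the 8 RA levels were above the highest vehicle level.

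*Coro1a* (probe A_42_P679371), a coronin known mainly from leukocytes and microglia, had ratios of 0.43, 0.52, 0.75 and 1.33 on the Cy5 arrays and 0.29, 0.67, 1.34 and 0.91 on the Cy3 arrays. Unlike *Pfn1*, its highest values were those of arrays 5 and 8. The mean was 0.78 (SD 0.39), 1.72-fold, and was 0.76 without arrays 6 and 7 and 0.60 without arrays 5 and 8. *Tagln2* (probe A_44_P248133), transgelin 2, had ratios of 0.18, 0.48, 1.14 and 0.67 on the Cy5 arrays and 0.16, 0.40, 0.79 and 1.29 on the Cy3 arrays. All were above 0, with arrays 6 and 7 highest. The mean was 0.64 (SD 0.42), 1.56-fold, and was 0.45 without arrays 6 and 7 and 0.61 without arrays 5 and 8. *Msn* (probe A_64_P052626), moesin, which ties filaments to the cell membrane, ranged from 0.0089 on array 1 to 0.58 on array 6, with a mean of 0.30 (SD 0.19), 1.23-fold. It was 0.23 without arrays 6 and 7 and 0.27 without arrays 5 and 8.

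**Figure D2:**
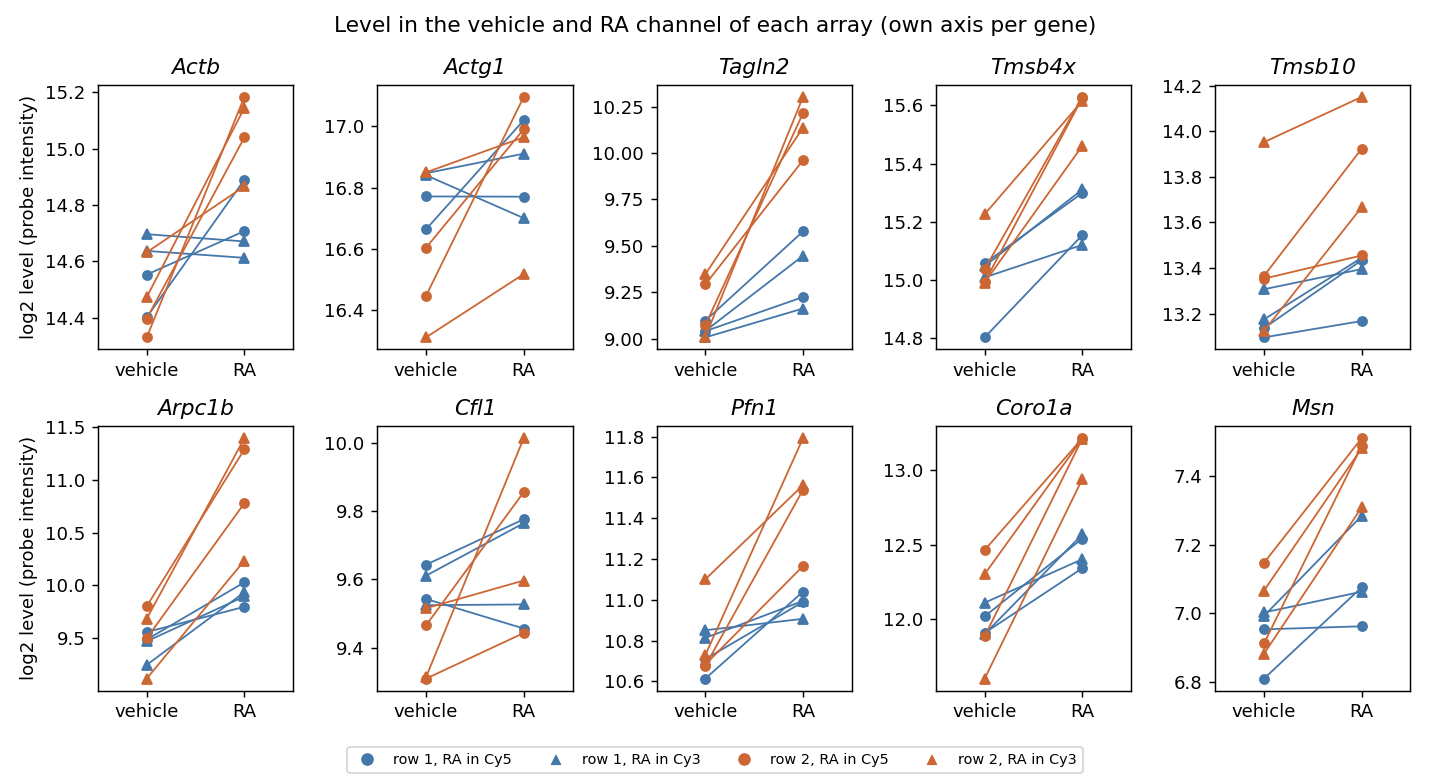
Log2 intensity of each gene's probe in the vehicle and the RA channel of each array, joined by a line; each panel has its own vertical axis, so levels cannot be compared between genes. Most lines rise, while the ranges of the 2 channels overlap for all 10 genes, as in *Actb*, where RA levels run from 14.6 to 15.2 and vehicle levels from 14.3 to 14.7.

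None of the 10 genes had all its RA levels above all its vehicle levels (0 of 10, against 0.264% of all named genes). Across the 8 arrays, Pearson's r between the ratios of 2 of the 10 genes was between -0.08 and 0.96, with a median of 0.66. These points share the hybridised RNA, the slide row and the dye order. The genes whose ratios followed those of *Actb* most closely, among 9453 others well above background in both channels on all 8 arrays, were *Mlec* (r = 0.989), *Mcat* (r = 0.977), *Stat3* (r = 0.974), *Pmp2* (r = 0.968) and *Nfkb2* (r = 0.962). *Mlec* encodes a lectin of the endoplasmic reticulum, *Mcat* a mitochondrial enzyme of fatty acid synthesis, *Pmp2* a fatty acid binding protein of myelin, and *Stat3* and *Nfkb2* transcription factors of cytokine signalling. Their mean ratios were between 0.22 for *Mcat* and 0.51 for *Stat3*.

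The dye order was compared next, since the difference between dye orders is independent of the mean by which the genes were picked. The mean ratio was above 0 in both dye orders for all 10 genes. That count rests on the values by which the genes were picked, and the share of all named genes was not counted. The largest differences were those of *Actb*, which was 0.32 higher on the Cy5 arrays (SE 0.18, mean 0.54 against 0.21), and *Actg1*, which was 0.29 higher (SE 0.13, 0.35 against 0.061). In limma with arrays taken as independent, the unadjusted p was 0.0986 for *Actb* (adjusted p = 0.314) and 0.0525 for *Actg1* (adjusted p = 0.227), and was under 0.01 for none of the 10 (0, and 0 under 0.05), against 9.64% of named genes at the first threshold and 3.91% at an adjusted p under 0.05. Arrays that carry the same RNA form pairs, which that fit leaves out. With the dye orders compared within pairs of arrays, an alternative added after the data were seen, the limma p depended on which arrays were paired. Over the 24 pairings, the unadjusted p ran from 0.00384 to 0.174 for *Actb* and from 0.00809 to 0.0981 for *Actg1*. At the largest p over the pairings 0 of the 10 genes were under 0.01, against 4.08% of named genes, and at the smallest p these 2 genes were. Whether *Actb* and *Actg1* differ between dye orders therefore turns on the pairing, which the sources used here do not state. Ratios of *Ttr*, a choroid plexus marker chosen after its values were seen, were alike on arrays 1 and 2 (1.76, 1.74). They were also alike on arrays 3 and 4 (0.73, 0.57), 8 and 5 (1.37, 1.21), and 6 and 7 (-4.48, -5.11). Within each such pair *Actb* was higher on the Cy5 array (0.15 against -0.025, 0.49 against -0.026, 0.64 against 0.23, 0.85 against 0.67). So was *Actg1*. This pairing was not tested.

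The 10 genes were also described by the row of the slide. All 10 had a mean above 0 in both rows, and all 10 had the higher mean in row 2. No test is given for these differences, since the genes were picked by their mean over both rows and the ratios of all probes were spread more widely in row 2, so that the choice itself favours genes that are high there. For *Arpc1b* the mean was 0.47 in row 1 and 1.40 in row 2, a difference of 0.93. For *Tagln2* the means were 0.31 and 0.97, a difference of 0.67, which was 0.42 without arrays 6 and 7. *Actb* had means of 0.15 and 0.60, a difference of 0.45. The 4 values of row 2 were all above the 4 of row 1 for *Tagln2*, *Tmsb4x*, *Arpc1b*, *Pfn1*, *Coro1a* and *Msn*. The shares of all named genes for the row patterns given here were not counted. For *Tmsb10* the difference was 0.17 and turned to -0.032 without arrays 6 and 7. Over the whole array, 2.16% of probes differed between rows at an unadjusted p under 0.01 in limma. Arrays paired by like ratios of *Ttr* lay within 1 row, and in that pairing the rows hold RNA of different rats. Row and rat cannot be told apart.

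Partners of the 10 genes were described from lists of the actin cytoskeleton, chosen with earlier results of these data known. The lists held 101 other genes on the array. Of these, 89 were well above background in both channels on all 8 arrays, as were 9453 of all named genes outside the 10. The shares below therefore compare unlike sets. Of the 101 genes, 11 rose at an unadjusted p under 0.01 in limma (10.9%, against 3.52% of named genes) and 0 fell. Of the 31 genes at an unadjusted p under 0.05, 3 were lower, *Myh10*, *Wasl* and *Limk1*, named after their values were seen. At that threshold 8.48% of named genes were higher and 4.57% lower. The median log2 fold change of the 101 was 0.07, against 0.38 for the 10 genes, and 76 of the 101 were above 0. Adjustment over all probes left 0 of them under 0.05 by limma at the largest p over the 24 pairings, the lowest adjusted p of any probe being 0.222. In single pairings, 0 to 2048 of all probes had an adjusted p under 0.05. With plain background subtraction 3 of the 101 rose, and with Agilent's own log ratios 4. Without arrays 6 and 7, 8 passed in either direction, 6 of them among the 11, and without arrays 5 and 8, 9 passed, 5 of them among the 11.

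The largest rise among these partners was that of *Lcp1*, which encodes L-plastin, a filament-bundling protein of blood cells and microglia. Its ratios were 0.46, 0.54, 1.83 and 1.69 on the Cy5 arrays and 0.67, 0.85, 1.92 and 1.90 on the Cy3 arrays, so that row 2 lay above row 1 in both dye orders. The log2 fold change of *Lcp1* was 1.23 (SE 0.23, unadjusted p = 0.000977, adjusted p = 0.227). *Rac2*, a small GTPase of blood cells, had a log2 fold change of 1.09 (SE 0.19, unadjusted p = 0.000608, adjusted p = 0.222) and was above 0 on 8 of 8 arrays, from 0.51 to 1.66. *Arhgdib*, an inhibitor of such GTPases, had 0.94 (SE 0.16, unadjusted p = 0.000488), and *Hcls1*, the form of cortactin found in blood cells, 0.77 (SE 0.16, unadjusted p = 0.00207). These genes also had higher values in row 2 than in row 1. *Rac2*, *Lcp1*, *Arhgdib*, *Flnc* and *Tpm3* were the 5 of the 11 that passed both without arrays 6 and 7 and without arrays 5 and 8.

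The other rises were smaller. *Tpm3*, a tropomyosin that lies along filaments, had a log2 fold change of 0.38, *Cnn3*, a calponin, 0.36, and *Myl12a*, a regulatory light chain of myosin II, 0.33. *Flnc*, a filamin that crosslinks filaments, had 0.27, and *Tmod3*, which caps filament ends, 0.26. The ratios of *Tmod3* were 0.47 to 0.72 on the Cy5 arrays and -0.42 to 0.068 on the Cy3 arrays, so that its value joins dye orders that do not overlap. *Arpc2*, an Arp2/3 subunit, had 0.20, and *Cyfip1*, a subunit of the WAVE complex that activates Arp2/3, 0.18. Among the 19 other isoforms, monomer-binding proteins, coronins and moesin relatives none passed (0 by limma, whereas *Twf2*, *Cap1* and *Coro1b*, 3 in all, had an unadjusted p under 0.05). In the actin isoforms, the muscle forms lay between 0.02 for *Actc1* and 0.15 for *Actg2*, and the values of *Actg2* ran from -1.49 to 1.76. *Srf* itself had a log2 fold change of 0.12 (SE 0.046, unadjusted p = 0.0338, adjusted p = 0.41).

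**Figure D3:**
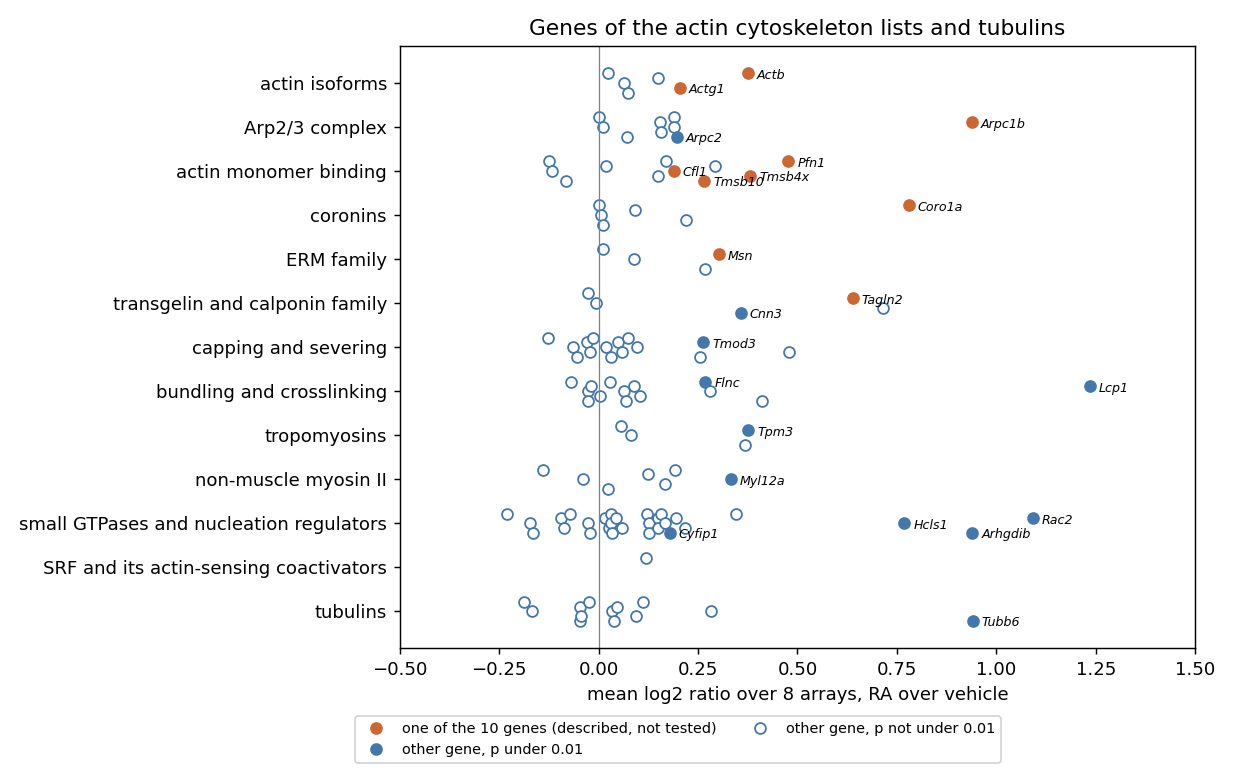
Mean log2 ratio over 8 arrays (horizontal axis) of genes in the lists of the actin cytoskeleton and of tubulins; orange points are the 10 genes, which were described and not tested, and filled blue points are other genes with an unadjusted p under 0.01 in limma. Most genes lie near 0, and *Lcp1* (1.23), *Rac2* (1.09), *Arhgdib* (0.94), *Tubb6* (0.94) and *Hcls1* (0.77) lie far to the right.

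Close relatives of the genes above were compared by their values, having been chosen after these were seen. Beside *Arpc1b* (0.94), *Arpc1a* had a log2 fold change of 0.012 (SE 0.045) with ratios of -0.053 to 0.07 on the 8 arrays. Beside *Pfn1* (0.48), *Pfn2*, the profilin of neurons, had -0.12, and beside *Cfl1* (0.19), *Cfl2* had -0.12. *Coro1b* had 0.22 and *Coro1c* 0.012, against 0.78 for *Coro1a*. *Tagln3*, a transgelin of neurons, had -0.026, whereas *Tagln*, that of smooth muscle, had 0.71 and was below 0 on arrays 5 and 8. In the moesin family *Ezr* had 0.27 and *Rdx* 0.012, against 0.30 for *Msn*. Likewise *Rac1* had 0.15, *Cttn* 0.025, *Pls1* -0.07, *Pls3* -0.019, *Arhgdia* 0.22 and *Cyfip2* -0.094. Differences between relatives were not tested. Among 13 tubulin genes, which build the other main filament of the cell, *Tubb6* rose (0.94, SE 0.17, unadjusted p = 0.000708, adjusted p = 0.222) and the median was 0.03.

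As *Actb* served as the reference of the study's PCR, it was set beside 14 other genes that are in common use for that purpose. The PCR itself was made on cultured hypothalamic slices and not on these rats. The mean ratio was within 0.1 of 0 for 10 of the 14. *Gapdh*, a glycolytic enzyme, had 0.022 (SD 0.087), *Tbp*, the TATA-binding protein, -0.0018 (SD 0.067), *Rpl13a* 0.0075 (SD 0.047), *Pgk1* 0.0088, *Ywhaz* 0.037, *Ppia* -0.039, *Eef1a1* 0.068, *Sdha* -0.074, *Tfrc* 0.081 and *Hprt1* -0.095. Higher means were those of *Gusb* (0.16), *Rps18* (0.19), *Rplp0* (0.30) and *B2m* (0.45), and *B2m*, the light chain of MHC class I, was the one gene above *Actb*. In limma *Rplp0* (SE 0.057, unadjusted p = 0.000915, adjusted p = 0.227) was higher at an unadjusted p under 0.01, and none of the 14 was lower (0, and 0 at an unadjusted p under 0.05). The SD of *Actb* over the arrays, 0.34, was also above those of *Gapdh*, *Tbp* and *Rpl13a*.

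**Figure D4:**
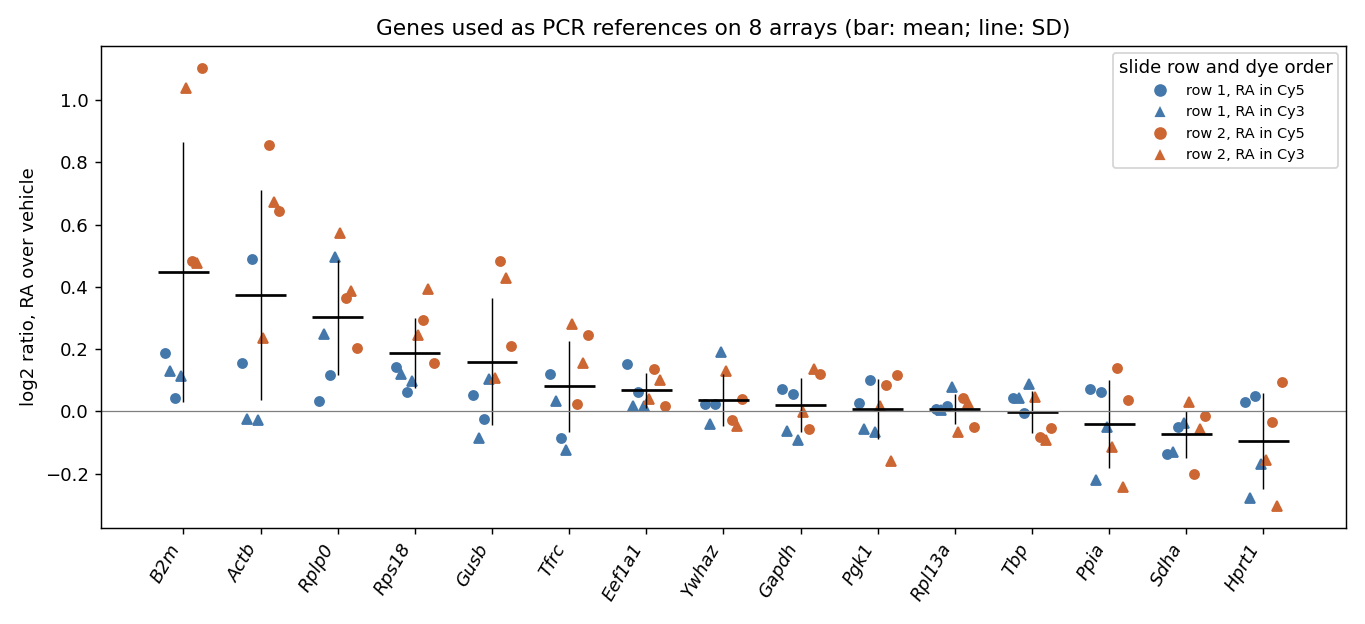
Log2 ratio of RA over vehicle (vertical axis) of 15 genes in use as PCR references on each of 8 arrays, ordered by mean; the bar is the mean and the thin line the SD over the arrays. *B2m* (0.45) and *Actb* (0.37) have the highest means, and 10 genes lie within 0.1 of 0.

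*Rarres2*, which encodes chemerin and is the gene that the study followed, had a mean ratio of 0.40 on these arrays (SD 0.32). Its ratios were -2.3e-04, 0.25, 0.75 and 0.079 on the Cy5 arrays and 0.27, 0.42, 0.44 and 0.95 on the Cy3 arrays. Taken relative to *Actb* on each array, the ratio of *Rarres2* was -0.16, -0.24, -0.11 and -0.56 on the Cy5 arrays and 0.30, 0.45, 0.21 and 0.28 on the Cy3 arrays. It was thus below 0 on the 4 arrays of 1 dye order and above 0 on the 4 of the other, with a mean of 0.021 (SD 0.34), or 1.01-fold. The mean was -0.27 on the Cy5 arrays and 0.31 on the Cy3 arrays, and 0.088 in row 1 and -0.046 in row 2. Relative to *Gapdh* the mean was 0.37 (SD 0.34, above 0 on 6 of 8 arrays), relative to *Ppia* 0.44 (SD 0.40, 7 of 8) and relative to *Hprt1* 0.49 (SD 0.43, 6 of 8). Over the 15 reference genes it ran from -0.051 with *B2m* to 0.49 with *Hprt1*, and was above 0.3 with 10 of them. These differences are descriptions of hybridisation ratios and were not tested. The study itself reported a rise of *Rarres2* after RA on its arrays. It reported higher *Rarres2* by PCR relative to *Actb*, in cultured slices of Sprague-Dawley pups. By in-situ hybridisation it also reported a rise in rats of a repeat injection experiment.

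**Figure D5:**
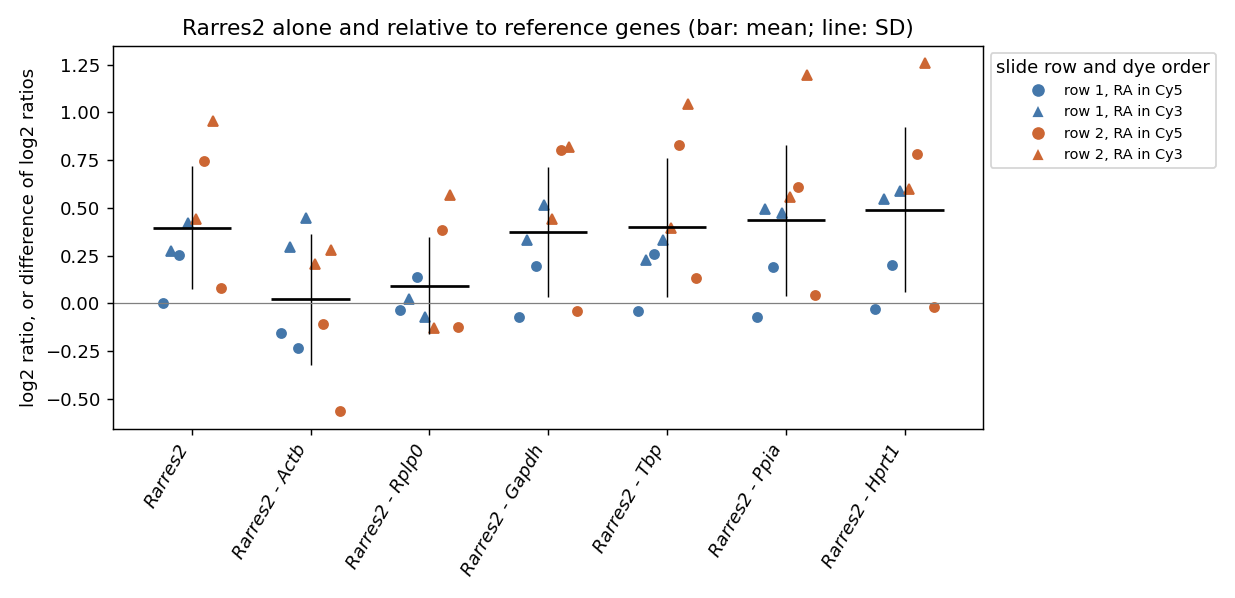
Log2 ratio of *Rarres2* (left) and the difference between it and that of each of 6 reference genes (vertical axis) on each of 8 arrays; the bar is the mean and the thin line the SD. Relative to *Actb* the mean is 0.021 and the dye orders lie on opposite sides of 0, and relative to *Gapdh*, *Tbp*, *Ppia* and *Hprt1* the means are 0.37 to 0.49.

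Markers of cells that are rich in these genes are given beside them. Of 9 microglia markers, *Aif1* (0.88), *Itgam* (0.87) and *Tyrobp* (1.08) rose and *Tmem119* (-0.52) fell at an unadjusted p under 0.01 in limma, and the median was 0.08. Their summed level was 14.5 to 15.5 in RA and 14.3 to 15.0 in vehicle channels on the log2 scale. Of 6 markers of monocytes and macrophages, *Cd14* (1.43), *Lyz2* (1.30) and *Cd68* (1.07) rose, and the median was 0.62. Their summed level was 13.2 to 15.4 in RA and 12.5 to 13.5 in vehicle channels. *Ccr2*, a defining marker of blood monocytes, was well above background in the RA channel of 1 array and in the vehicle channel of none (0). The median of the monocyte and macrophage list was 0.07 to 0.53 in row 1 and 0.72 to 1.04 in row 2. That of the microglia list was -0.12 to 0.20 in row 1 and -0.03 to 0.17 in row 2. The ratios of all probes were spread more widely in row 2.

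Of 6 neutrophil markers *S100a9* (1.25) rose, and 2 of the 6 were well above background in both channels on all arrays, while *Elane* and *Mmp8* were so on none (0). None of 7 lymphocyte markers passed (0, with 3 at an unadjusted p under 0.05), and 1 of the 7 was well above background throughout. Among astrocyte markers *Gfap*, an intermediate filament protein, rose by 1.40 and *Gja1* fell by 0.22 on the log2 scale. None of the endothelial, smooth muscle, oligodendrocyte, ependymal or choroid plexus markers passed (0 in each list at an unadjusted p under 0.01, with 1, 1, 3, 0 and 0 at an unadjusted p under 0.05), and *Nefl* (-0.30) was the one neuronal marker that did. The part of any of these cells in the ratios of the actin genes was not tested.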

How the data were processed

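RNA from the hypothalamus of 4 rats given RA and 4 given vehicle was measured on 8 Agilent arrays with 2 dyes and dye-swap. The authors deposited scanner files with intensity values of each spot in Cy3 and Cy5 and Agilent's log10 ratio, and a table of normalised log2 ratios. Their methods name limma, loess and a block for dye-swaps, and no background correction.

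Here, R 4.3.3 and limma 3.58.1 were used. Median signals were background-corrected by normexp (offset 50), outlier spots were left out, loess was applied within arrays, and spots of a probe were averaged. Channel levels were scaled between arrays by average intensity (Aquantile). A probe counted as well above background where at least 0.5 of its spots were marked so. Accessions were matched to RefSeq genes (GRCr8), naming 18006 of 30367 probes, and the brightest probe stood for a gene.

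The sources used here do not state which arrays share RNA. All 24 pairings of the dye orders were therefore fitted by limma on 4 pair means, and the largest p per probe was kept, with Benjamini-Hochberg adjustment over all probes. The threshold was that of the methods, an unadjusted p under 0.01. Slide rows were compared in the 4 pairings within rows, and dye orders on 8 arrays and within all 24 pairings. Tests were checked on simulated data. The number of arrays limits the precision, and p values measure the spread between these arrays.

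The members and lists were chosen with earlier results of these data known. Named genes were the 10, genes of each list past the threshold (else its highest and lowest), PCR references, *Rarres2*, the 5 closest to *Actb*, and marker extremes. Alternatives covered background correction, scaling, deposited values, blocks, single dye orders or rows, and each pair of arrays left out. A few genes of the lists are not reported here.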

Additional observations from a re-analysis of the deposited data

Results flagged for a closer look

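Each of 55 measures, the medians of the lists among them, was searched in each dye order for an array far from the other 3. This gave 110 groups of 4 arrays, of which chance marks about 1 in 20. The search marked 2, which is below that share. The median log2 ratio of the genes that bind actin monomers was 0.41 on array 7, against 0.06 to 0.08 on the other arrays with RA in Cy3. The median log2 ratio of the choroid plexus markers was -1.51 on array 6, against 0.36 to 0.57 on the other arrays with RA in Cy5.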

How the results depend on the processing

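The mean ratio of each of the 10 genes stayed above 0 in all alternatives, 32 for each and 34 for *Actg1*. These use the same arrays from which the genes were picked, so this is a description, and the share of all named genes was not counted. That of *Actb* lay between 0.15 in row 1 and 0.60 in row 2, and that of *Arpc1b* between 0.47 and 1.40, also in the rows. *Msn* moved beyond its SD, to 0.63 with plain background subtraction and 0.56 with Agilent's log ratio. *Rarres2* relative to *Actb* lay between -0.27 and 0.31, in the single dye orders. The difference of *Tmsb10* between rows ran from -0.032 without arrays 6 and 7, where it reversed, to 0.37 without arrays 5 and 8.

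The number of probes past the threshold, 988, was 239 with plain subtraction, 330 with Agilent's log ratio, 1725 with pairs as a random block (299 at an adjusted p under 0.05), 2481 with 8 independent arrays, 2161 and 2316 with RA in Cy5 or Cy3 alone, 1595 with slide row as a block and 3907 with the smallest p over the pairings, and 455 to 1111 in the leave-one-out fits. The 11 genes of the actin lists became 3, 4, 22 and 27 in the first 4 of these, 19 in row 2 alone, 21 with row as a block, 39 with the smallest p, and 7 to 13 in the leave-one-out fits. The 655 probes that differed between rows became 1559 with independent arrays and 346 to 1738 in the leave-one-out fits, which were added after the data were seen. The 3055 probes that differed between dye orders became 1265 at the largest and 5388 at the smallest p within pairs, also added after the data were seen. The cause of these changes was not tested. The labels do not say which arrays form a pair, so every pairing was fitted.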
